A study of Mus musculus with 6 samples.

Results

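The genes of cholesterol synthesis, uptake and efflux were followed through an RNA sequencing experiment on primary endothelial cells from the brain microvessels of wild-type C57BL/6 mice, whose tight junctions make the wall of brain capillaries a barrier. The set holds 32 of the 43271 genes counted, chosen by name for their known roles: 8 enzymes of the mevalonate and isoprenoid steps, 11 enzymes from squalene to cholesterol, 4 genes for SREBP2 and its regulators, 4 genes of cholesterol transport and esterification, and 5 genes for the liver X receptors (LXR) and efflux. Confluent cultures (passage 2 to 6, medium with 5% serum) received the vehicle dimethyl sulfoxide (DMSO, 3 libraries) or the HIV integrase inhibitor dolutegravir (DTG, 3 libraries) at 5000 ng/ml, both for 24 h. Nothing in the labels states that the 3 libraries of a treatment were grown separately, and p-values therefore reflect only their spread, which may be technical. Library names carry an undefined P4 or P5 tag (P4 for DMSO replicate 1 and DTG replicates 2 and 3, P5 for the others), and differences within each tag are given beside the results. The names also carry an undefined number, shared by DMSO replicates 1 and 2 (number 1) and by DTG replicates 1 and 2 (number 2). Libraries that share it within a treatment may not be independent, in which case 3 libraries stand for 2 cultures. DIG stands in place of DTG in the library name of DTG replicate 1, whose group comes from its sample's label.

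Animal cells build cholesterol from acetyl-CoA through mevalonate, isoprenoid diphosphates, squalene and lanosterol. The transcription factor SREBP2 drives most of these enzyme genes. It is held in the endoplasmic reticulum (ER) with its escort SCAP by the INSIG proteins when sterol is plentiful, and is carried to the Golgi and cut to its active form when ER sterol falls. Sterol surplus instead activates LXR through oxysterols, and LXR raises the exporters ABCA1 and ABCG1 and the ubiquitin ligase MYLIP, which removes lipoprotein receptors. In brain capillaries these routes set the membrane cholesterol of a cell layer that is itself a barrier to plasma lipoproteins.

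SREBP2 acts on promoters together with NF-Y, a factor that binds the letters CCAAT. The RefSeq promoter table (build GRCm38.p6) held windows for 26 of the 32 genes, with no entry for Fdps, Fdft1, Sqle, Npc1, Stard4 and Abcg1. In the 250 bases before the start, CCAAT on either strand was found in 21 of the 26 genes (80.8%), against 37.5% of the 27025 genes in that table. Those genes were not limited to the ones tested in these libraries, so this and the shares below compare unlike sets. Within 100 bases it was found in 18 (69.2%), against 21.6%. Of the 16 synthesis genes with a window 15 had the box, and of the 10 other members 6. The letters TCACNCCAC, a consensus of the sterol regulatory element bound by SREBP2, were found in 1 member, Hmgcs1 (3.85%, against 1.22% of genes). The ER stress element (CCAAT, 9 bases of any kind and CCACG, so that it contains the CCAAT box) was found in 0 of 26 members and in 0.13% of genes. The LXR repeat (AGGTCA, 4 bases of any kind and AGGTCA) was found in 0 of 26 and in 0.0148%. All motifs were searched on both strands. The E-box CACGTG was found in 6 members (23.1%, against 6.86% of genes). A match is a description of letters in these windows and not a measured site.

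The windows below contain no annotated exon and are a selection. The first window of Pmvk and those of Nr1h2, Abca1 and Mylip also contain none and are not shown. Of these, Pmvk, a synthesis gene that did not pass, has 1 CCAAT box and the untested Mylip has 3. Nr1h2 and Abca1 have 0. Insig2 has 3 CCAAT boxes in the window shown, the first of 3, and 0 in the others. Scap has none. The windows shown belong to 4 synthesis genes that rose, then to Insig2, a regulator that did not pass the test, and Scap, a regulator that fell. They run 5′ to 3′ on the strand of the gene and end at the base before the start, and capitals mark CCAAT (or its reverse, ATTGG) and the sterol regulatory element. They lie at chr13:119690101-119690350 (Hmgcs1, plus strand), chr8:122443423-122443672 (Mvd, minus), chrX:8193513-8193762 (Ebp, minus), chr9:42264301-42264550 (Sc5d, minus), chr1:121332590-121332839 (Insig2, minus) and chr9:110333038-110333287 (Scap, plus).
Hmgcs1: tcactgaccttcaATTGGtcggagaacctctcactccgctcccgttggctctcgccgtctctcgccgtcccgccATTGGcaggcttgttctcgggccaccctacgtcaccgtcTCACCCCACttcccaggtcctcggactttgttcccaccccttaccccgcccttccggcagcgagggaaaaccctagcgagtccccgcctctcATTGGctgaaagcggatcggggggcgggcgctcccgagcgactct
Mvd: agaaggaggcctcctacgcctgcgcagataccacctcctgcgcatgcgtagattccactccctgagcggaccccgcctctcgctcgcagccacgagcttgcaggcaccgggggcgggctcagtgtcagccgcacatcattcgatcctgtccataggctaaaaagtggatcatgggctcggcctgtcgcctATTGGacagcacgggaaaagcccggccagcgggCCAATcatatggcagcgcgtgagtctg
Ebp: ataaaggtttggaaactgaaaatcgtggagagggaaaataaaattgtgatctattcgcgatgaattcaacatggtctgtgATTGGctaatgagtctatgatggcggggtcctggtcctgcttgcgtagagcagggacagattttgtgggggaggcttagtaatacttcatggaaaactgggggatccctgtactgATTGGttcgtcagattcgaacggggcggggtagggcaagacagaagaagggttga
Sc5d: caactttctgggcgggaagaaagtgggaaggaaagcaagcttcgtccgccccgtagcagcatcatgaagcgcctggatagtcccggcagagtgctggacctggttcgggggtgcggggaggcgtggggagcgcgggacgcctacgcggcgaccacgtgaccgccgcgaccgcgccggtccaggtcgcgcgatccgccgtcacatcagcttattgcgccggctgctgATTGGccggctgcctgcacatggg
Insig2: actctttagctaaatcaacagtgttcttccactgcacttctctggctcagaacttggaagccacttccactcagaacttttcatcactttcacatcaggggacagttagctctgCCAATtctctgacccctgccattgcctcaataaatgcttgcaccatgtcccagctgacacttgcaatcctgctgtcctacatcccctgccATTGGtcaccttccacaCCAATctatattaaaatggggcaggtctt
Scap: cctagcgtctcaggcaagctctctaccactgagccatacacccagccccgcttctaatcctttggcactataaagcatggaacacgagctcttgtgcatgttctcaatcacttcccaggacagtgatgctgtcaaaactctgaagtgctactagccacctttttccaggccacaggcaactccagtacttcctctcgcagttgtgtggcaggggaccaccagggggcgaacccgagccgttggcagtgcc

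**Figure D1:**
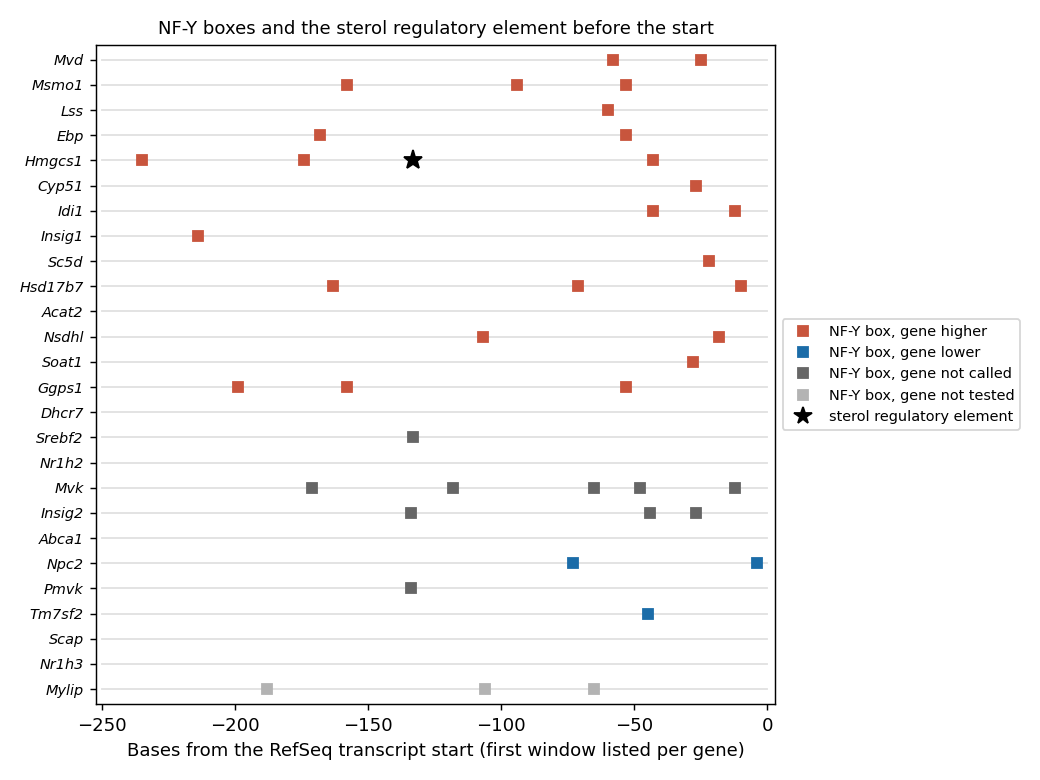
Position of NF-Y boxes (squares) and of the sterol regulatory element (star) in the first RefSeq window of each of 26 genes, in bases before the start. Genes are ordered from the largest rise to the largest fall in DTG, with the untested Mylip last, and squares are coloured by the result of the test. Of the 14 genes that rose, 13 have a box, and of the 12 others 8 have one in any of their windows. Among synthesis genes the box did not separate genes that rose from the others. Mvk, Pmvk, Tm7sf2 and Dhcr7 (outside its first window) have a box and did not rise, and Acat2 rose and has none.

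Libraries held between 41162353 and 56316335 counts, and log2 expression correlated across genes, which are not independent replicates, at 0.9943 to 0.9982 within groups and 0.963 to 0.9736 between them. All 10 endothelial markers examined were present (summed level 10068 to 10844 CPM in DMSO and 6230 to 6579 CPM in DTG), and 7 of them fell, Pecam1, Kdr, Tek, Erg, Cldn5, Vwf and Emcn. CPM is the usual depth-scaled count, here with TMM-scaled library sizes. Markers of pericytes and smooth muscle summed to 0.607 to 0.737 CPM in DMSO and 0.892 to 1.51 CPM in DTG, with all 8 under 1 CPM and Rgs5 and Kcnj8 at 0. Of the 2 tested, Myh11 did not pass (edgeR adjusted p = 0.0925). Pdgfrb was called higher, but had only 12, 10 and 8 counts in DMSO and 27, 43 and 39 in DTG, so that call carries no weight here. Of the untested, Cspg4 went from 25 summed counts in DMSO to 4 in DTG, Des from 4 to 11 and Acta2 from 4 to 7. Astrocyte markers summed to 0.207 to 0.337 and 0.166 to 0.223 CPM, with Aqp4 at 0. Fibroblast markers, led by Pdgfra, summed to 6.52 to 7.50 CPM in DMSO and 7.22 to 8.53 CPM in DTG. Col1a1 among them was called higher, 1.91-fold (edgeR adjusted p = 0.0179, range over alternatives 0.00352 to 0.0739). It had only 23, 30 and 15 counts in DMSO and 31, 54 and 43 in DTG, so that call carries no weight here either. The microglial list summed to 23.6 to 29.5 CPM in DMSO and 6.26 to 7.74 CPM in DTG, nearly all from Tmem119, with P2ry12 at 0 and Cx3cr1, Aif1, Csf1r and Ptprc under 1 CPM. The neuronal list summed to 0.158 to 0.322 CPM and 2.21 to 6.04 CPM, nearly all from Tubb3, with Map2 at 0. The part of these shifts in the results below was not tested, and in bulk RNA fewer cells of a type and less RNA per cell cannot be told apart.

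With DTG 15 of the 19 synthesis genes rose, 1 (Tm7sf2) fell and 3 (Mvk, Pmvk and Dhcr7) did not pass. The transcript of SREBP2 itself did not pass, and the exporter gene Abcg1 fell. Of 31 members tested, 18 rose and 5 fell at an adjusted p under 0.05 (edgeR quasi-likelihood test), 74.2% in all. That threshold was passed by 56.7% of all 14101 genes tested, 27.4% as higher and 29.3% as lower, so about 1 tested gene in 2 moved and the count of members is read against that. The median change of the members was 0.49 log2, against -0.01 over all genes tested. A rise of at least 2-fold that passed was seen in 9 members (Hmgcs1, Mvd, Fdps, Fdft1, Sqle, Lss, Cyp51, Msmo1 and Ebp) and in 6.28% of all genes. Such a fall was seen in Abcg1 and in 8.35% of all genes. It was also called for Nr1h3, which had fewer than 20 counts in each library and passed the count filter through its DMSO libraries alone, so that call carries no weight here. Nr1h3 is still counted in the 5 falls and the 74.2% above and in the 25 members below. With at least 1 CPM required in 3 libraries it was not tested, and 18 members rose and 4 fell. DMSO and DTG libraries did not overlap in 25 members and in 64.2% of all genes tested. Earlier results of these data were known when the members were chosen, so these counts are a description. With scaling by library size alone, which moved the all-gene median by -0.17 log2, 16 members rose and 8 fell. The count of falling members was 3 without DMSO replicate 1 or 2 or without DTG replicate 2 or 3.

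**Figure D2:**
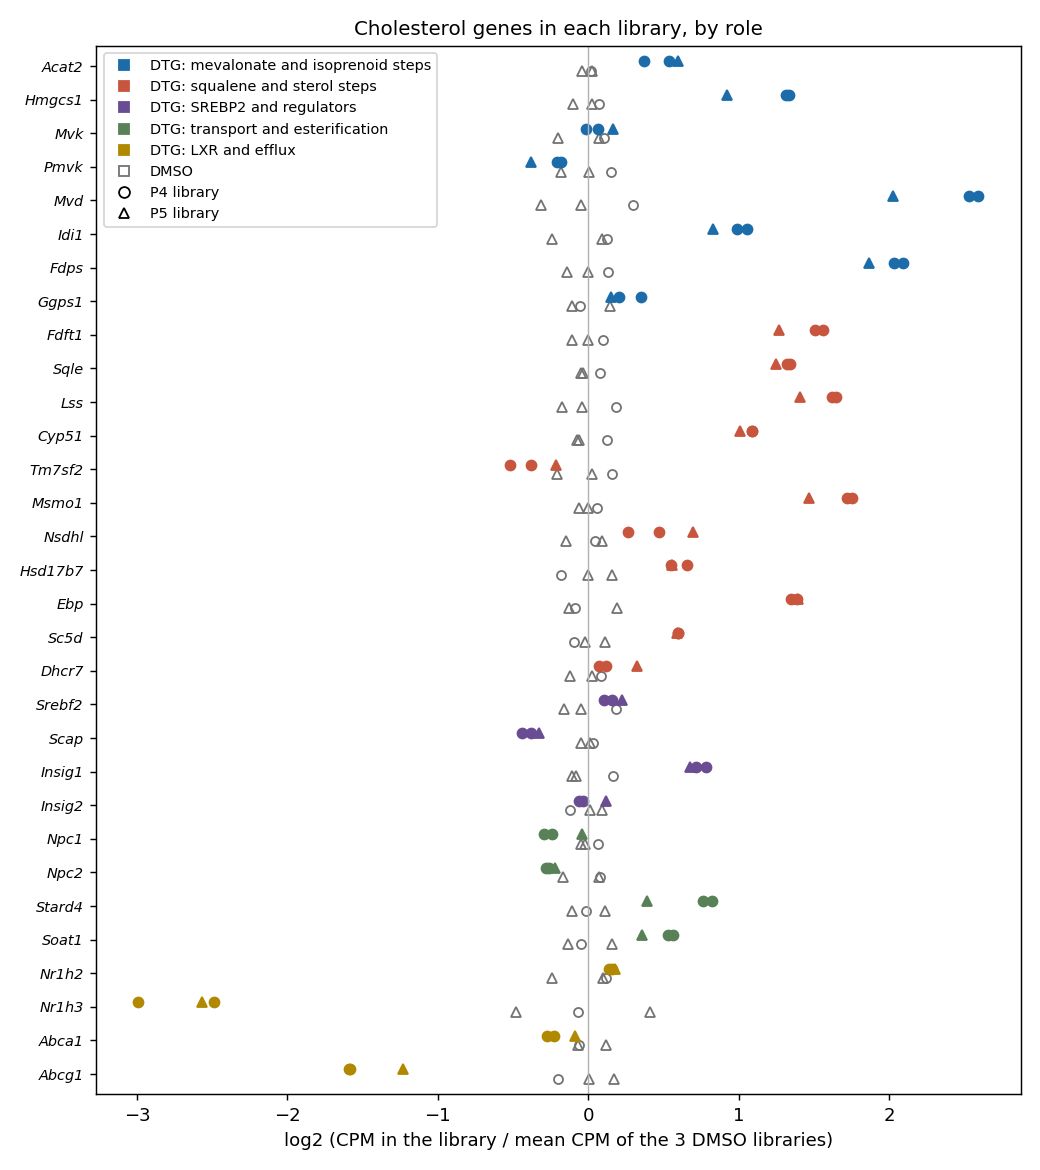
Each point is 1 library: log2 of its CPM over the mean of the 3 DMSO libraries, for the 31 members tested, with DTG in colour by role, DMSO open, circles for P4 and triangles for P5 libraries. The DTG libraries of Mvd, Fdps and Msmo1 lie far to the right of DMSO, those of Mvk, Dhcr7 and Insig2 overlap the DMSO libraries, and those of Abcg1 and Nr1h3 lie to the left.

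In the mevalonate and isoprenoid steps, 6 of 8 genes rose and 0 fell (75.0%, against 56.7% of all genes, 27.4% as higher). Their median change was 0.73 log2 (P4 libraries 0.67, P5 libraries 0.75). The response differed from step to step, from a 5.29-fold rise of Mvd to no call for Mvk and Pmvk, which encode the kinases just before it. Mvd (diphosphomevalonate decarboxylase, ENSMUSG00000006517) was at 15.1, 11.9 and 9.88 CPM in the 3 DMSO libraries and at 50.1, 74.3 and 71.2 CPM in the 3 DTG libraries. The lowest DTG library, replicate 1, was still more than 3 times the highest DMSO library. Its log2 change was 2.40 ± 0.19 (SE, edgeR adjusted p = 8.73e-06), the largest rise of the 31, and was 2.27 among P4 and 2.20 among P5 libraries.

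Fdps makes farnesyl diphosphate, the branch point from which squalene, dolichol, ubiquinone and protein prenyl groups are made. It was at 44.2, 40.3 and 36.6 CPM in DMSO and at 147, 172 and 165 CPM in DTG. The groups stood far apart, with a change of 2.00 ± 0.10 log2 (SE, edgeR adjusted p = 2.35e-07). The smallest p of all members belonged to this gene. In the annotation 26.7% of its exon bases are shared with Gm43738 on the same strand, which was at 0.157 and 0.302 CPM.

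Hmgcs1, the synthase that makes the substrate of mevalonate synthesis and the 1 member with a sterol regulatory element in its window, was at 61.5, 54.7 and 59.5 CPM in DMSO. In DTG it was at 111, 146 and 148 CPM, with replicate 1 the lowest, a rise of 2.31-fold (edgeR adjusted p = 1.29e-05). Idi1, the isomerase of isopentenyl diphosphate, went from 27.8, 21.6 and 27.2 CPM to 45.3, 53.0 and 50.7 CPM. It rose 1.95-fold without overlap (edgeR adjusted p = 4.79e-05).

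Acat2, the cytosolic thiolase that starts the pathway, rose less, from 46.7, 47.0 and 44.8 CPM to 69.9, 59.7 and 67.1 CPM (1.42-fold, edgeR adjusted p = 4.28e-04). Its close paralog Acat3, named after its values were seen, went from 2.99, 5.06 and 3.96 CPM to 29.4, 27.7 and 27.5 CPM. Near-identical copies can share reads, so the split between Acat2 and Acat3 is uncertain, although both were higher in each DTG library.

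Mvk, mevalonate kinase, was at 20.7, 20.3 and 16.8 CPM in DMSO and at 21.6, 20.2 and 19.1 CPM in DTG, and the groups overlapped (0.07 ± 0.10 log2, SE, edgeR adjusted p = 0.576). Pmvk, phosphomevalonate kinase, was at 11.4, 10.3 and 9.05 CPM and at 7.86, 9.06 and 8.86 CPM. It differed by -0.26 ± 0.12 log2 (SE) and did not pass (edgeR adjusted p = 0.0835, range over 15 alternatives 0.00979 to 0.272). It passed as lower with library size alone (0.00979), with upper-quartile factors (0.0264), without DMSO replicate 3 (0.0297) and with the P tag in the model (0.0178). Counts of Fdps were 3.86, 3.92 and 4.05 times those of Pmvk in the DMSO libraries and 18.7 times or more in each DTG library, so genes of the same route changed unequally.

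Ggps1, which makes geranylgeranyl diphosphate for protein prenylation and stands outside the route to sterol, was at 33.3, 32.1 and 38.3 CPM in DMSO and at 38.4, 39.9 and 44.2 CPM in DTG. The groups almost touched, and the rise of 0.24 ± 0.09 log2 (SE) passed narrowly (edgeR adjusted p = 0.0490). The call was lost in 7 of 15 alternatives (range 0.0124 to 0.537): library size alone (0.537), upper-quartile factors (0.201), the P tag in the model (0.0707), or without DMSO replicate 1 (0.139), DMSO replicate 2 (0.173), DTG replicate 2 (0.0687) or DTG replicate 3 (0.164). In the annotation 5.44% of its exon bases lie opposite Arid4b.

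From squalene to cholesterol, 9 of 11 genes rose and 1 fell (90.9%, against 56.7% of all genes, 27.4% as higher and 29.3% as lower). Their median change was 1.06 log2 (P4 libraries 0.96, P5 libraries 1.08). The rises ranged from 0.49 log2 for Nsdhl to 1.66 log2 for Msmo1. Msmo1, the methylsterol oxidase that helps to remove methyl groups from lanosterol products, was at 41.4, 38.1 and 39.7 CPM in DMSO and at 110.2, 134 and 131 CPM in DTG. The DMSO libraries lay within 4 CPM of each other, and the change was 1.66 ± 0.09 log2 (SE, edgeR adjusted p = 5.34e-07).

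Fdft1, squalene synthase, which commits farnesyl diphosphate to sterol, was at 31.9, 29.8 and 27.6 CPM and at 71.7, 87.9 and 84.8 CPM. It rose 2.74-fold without overlap (edgeR adjusted p = 1.79e-06). In the annotation 18.3% of its exon bases lie opposite the cathepsin B gene Ctsb, an abundant transcript at 847 ± 53.5 CPM in DMSO and 687 ± 108 CPM in DTG (SD, n = 3 each). The kit preserves strand but the strand setting of the counting is not given in the sources used here, so some reads of the 2 genes may not be separated.

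Sqle, squalene epoxidase, a rate-limiting step of the late pathway, was at 72.6, 66.5 and 67.1 CPM in DMSO and at 163, 174 and 172 CPM in DTG. It rose 2.47-fold (edgeR adjusted p = 6.44e-07). Lss, which closes the rings to lanosterol, was at 24.1, 18.8 and 20.6 CPM and at 56.1, 65.1 and 66.3 CPM, 2.96-fold higher (edgeR adjusted p = 2.28e-06). In both genes each DTG library was more than 2 times the highest DMSO library.

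Cyp51, lanosterol demethylase, went from 52.8, 45.9 and 46.2 CPM to 97.1, 103 and 103 CPM, 2.09-fold higher (edgeR adjusted p = 3.79e-06). Ebp, the isomerase that moves the ring double bond, went from 19.9, 24.2 and 19.4 CPM to 55.8, 55.3 and 54.0 CPM, 2.60-fold higher (edgeR adjusted p = 2.32e-06). The 3 DTG libraries of Ebp were nearly equal, unlike those of Mvd or Hmgcs1.

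Smaller rises were seen in 3 further genes. Nsdhl, the dehydrogenase of sterol demethylation, was at 16.6, 17.1 and 14.5 CPM and at 26.0, 19.3 and 22.3 CPM (1.40-fold, edgeR adjusted p = 0.00626, or 0.0537 with library size alone, range over alternatives 3.28e-04 to 0.0537). Hsd17b7, the ketoreductase of the same complex, was at 13.6 ± 1.62 CPM (SD, n = 3) in DMSO, with a highest library of 15.2, and at 20.0, 21.4 and 19.9 CPM in DTG, 1.50-fold higher (edgeR adjusted p = 8.96e-04). Sc5d, the sterol desaturase, was at 26.9, 28.3 and 31.1 CPM and at 43.3, 43.5 and 43.5 CPM, 1.51-fold higher (edgeR adjusted p = 1.52e-04). In all 3 the groups did not overlap, and Nsdhl differed most between the tags, by 0.32 log2 within P4 and 0.72 within P5.

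Tm7sf2 and Dhcr7, both sterol reductases, did not follow. Tm7sf2, which acts just after Cyp51, was at 9.49, 8.65 and 7.37 CPM in DMSO and at 7.32, 5.94 and 6.53 CPM in DTG. The groups were separated by a narrow gap between DMSO replicate 3 and DTG replicate 1, and the fall was 0.37 log2 (SE 0.13, edgeR adjusted p = 0.0337). It was -0.61 among P4 and -0.13 among P5 libraries. The call was lost without DMSO replicate 1 (0.128) or 2 (0.0897) and without DTG replicate 2 (0.159) or 3 (0.112), with a range over 15 alternatives of 0.00633 to 0.159. Tm7sf2 shares 12.1% of its exon bases with Vps51 on the same strand, which was at 51.0 and 48.9 CPM. Dhcr7, which forms cholesterol in the last step, was at 16.9, 16.2 and 14.6 CPM and at 19.9, 16.7 and 17.3 CPM, with overlap and no call (0.17 ± 0.10 log2, SE, edgeR adjusted p = 0.173).

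Per kilobase of the longest coding transcript, the 19 synthesis genes ranged from 2.95 (Hsd17b7) to 29.2 CPM per kb (Fdps) in DMSO. This scale compares different genes only as far as that transcript is the form expressed. In DTG they ranged from 4.40 (Tm7sf2) to 117 CPM per kb (Fdps), and Fdps passed Npc2 and Abca1 as the member with the highest level per kb. That rank depends on the lengths used: in CPM with DTG, Npc2 (263) and Abca1 (826) stayed above Fdps (162). Mvd went from 7.00 to 37.1 CPM per kb, which put it above Mvk (11.6 and 12.2) and Pmvk (8.60 and 7.19), the 2 steps before it. The summed level of the 19 genes was 232, 217 and 210.0 CPM per kb with DMSO and 480.1, 539 and 534 with DTG (ratio of means 2.36). The mevalonate part rose by a ratio of 2.42 and the sterol part by 2.29. Among the 15 synthesis genes that rose, DTG replicate 1 was the lowest DTG library in 11, and it is the only DTG library with the P5 tag, so tag and library cannot be told apart there. DMSO replicate 1, the only DMSO library with the P4 tag, was the highest DMSO library in 9 of the 15.

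**Figure D3:**
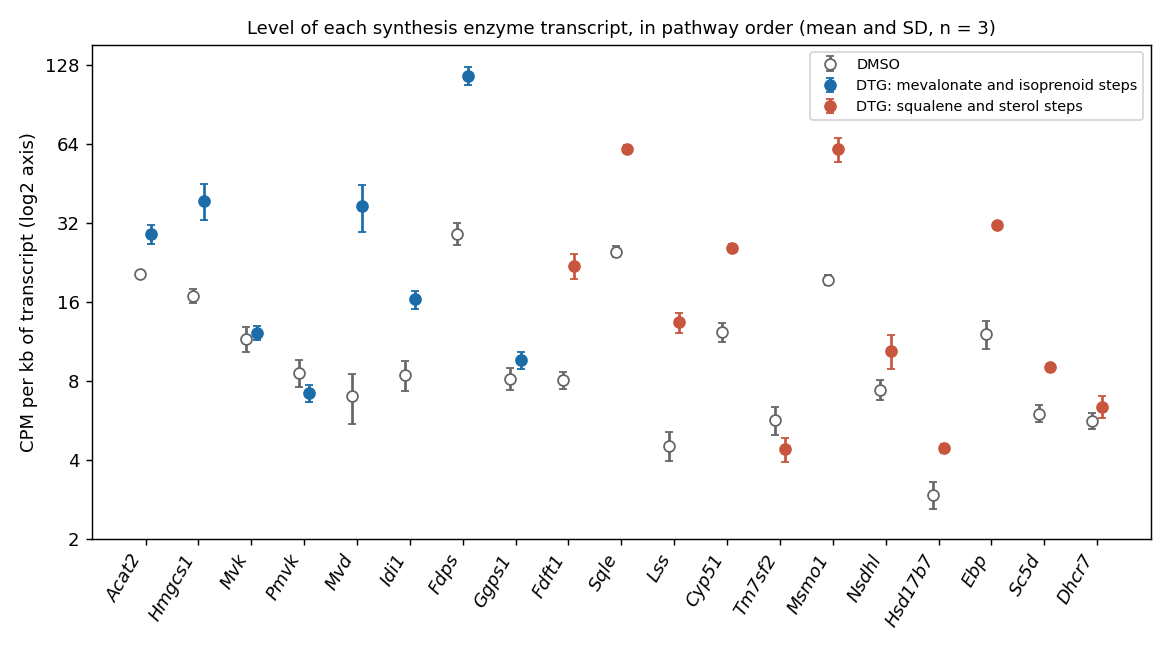
Level of each of the 19 synthesis transcripts in pathway order from left to right, as mean CPM per kb of transcript with SD (n = 3 libraries each), on a log2 axis. Fdps, at 117 CPM per kb, is the highest in DTG, and the pairs of points of Mvk, Pmvk, Ggps1, Tm7sf2 and Dhcr7 lie close together.

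Among SREBP2 and its regulators 1 of 4 genes rose and 1 fell (50.0%, against 56.7% of all genes). Their median change was 0.09 log2 (P4 libraries 0.01, P5 libraries 0.20). Srebf2, which encodes SREBP2, was at 237, 202 and 186 CPM in DMSO and at 244, 233 and 224 CPM in DTG. The groups overlapped through DMSO replicate 1, and the difference of 0.17 ± 0.10 log2 (SE) did not pass (edgeR adjusted p = 0.161, range over alternatives 0.0327 to 0.970). It passed as higher without DMSO replicate 1 (0.27 log2, 0.0327), and its sign turned with library size alone and differed between the tags, at -0.05 within P4 and 0.33 within P5. Transcript level says nothing of the cutting of the protein, which was not measured. Scap, the sterol-sensing escort of SREBP2, was at 61.9, 61.1 and 58.5 CPM and at 48.3, 46.5 and 44.6 CPM. It was 1.30-fold lower with a wide gap between groups (edgeR adjusted p = 0.00127), by -0.44 log2 within P4 and -0.31 within P5.

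The 2 INSIG genes, whose proteins both retain SCAP in the ER, differed in response. Insig1, itself a target of SREBP2, was at 134, 113 and 111 CPM in DMSO and at 191, 205 and 196 CPM in DTG. It rose by 0.72 ± 0.09 log2 (SE, edgeR adjusted p = 7.23e-05), and no DTG library came near the DMSO range. Insig2 was at 29.1, 33.7 and 31.9 CPM and at 34.3, 30.8 and 30.2 CPM, and the groups overlapped (0.01 ± 0.09 log2, SE, edgeR adjusted p = 0.940). Counts of Insig1 were 4.62, 3.35 and 3.49 times those of Insig2 with DMSO and 5.58, 6.64 and 6.48 times with DTG. The ratio was thus higher in each DTG library than in each DMSO library.

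Genes that move or store cholesterol inside the cell did not move as 1 group: 2 of 4 rose and 1 fell (75.0%, against 56.7% of all genes). Stard4, a soluble sterol carrier, was at 123, 115 and 134 CPM in DMSO and at 163, 219.6 and 210.3 CPM in DTG. It rose 1.60-fold (edgeR adjusted p = 6.27e-04), with DTG replicate 1 well under the other DTG libraries and differences of 0.81 log2 within P4 and 0.39 within P5. Soat1, which esterifies cholesterol for storage in droplets, was at 93.6, 88.2 and 108 CPM and at 124, 143 and 139.5 CPM. It rose 1.40-fold without overlap (edgeR adjusted p = 0.00154).

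Npc1 and Npc2 together release cholesterol from lysosomes. Npc2, the soluble carrier and the member with the highest level per kilobase in DMSO (95.1 CPM per kb), was at 332, 329.7 and 279.9 CPM in DMSO and at 269, 259 and 262 CPM in DTG. It was 1.19-fold lower (edgeR adjusted p = 0.0248), with a narrow gap to DMSO replicate 3. The call was lost without DMSO replicate 1 (0.0924) or 2 (0.0898) and without DTG replicate 2 or 3 (0.112 each), with a range over alternatives of 0.00178 to 0.112. Npc1, the membrane transporter, was at 89.3, 82.4 and 84.1 CPM and at 83.0, 72.2 and 69.7 CPM, where DTG replicate 1 lay inside the DMSO range. It differed by -0.18 ± 0.08 log2 (SE) and did not pass (edgeR adjusted p = 0.0866), but passed as lower without DTG replicate 1 (0.0208), with upper-quartile factors (0.0193) and with library size alone (0.00614), over a range of 0.00614 to 0.421. In the annotation 4.52% of its exon bases lie opposite Rmc1, which was at 83.5 CPM in DMSO and 68.3 CPM in DTG.

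Of 4 LXR and efflux genes tested 0 were called higher and 2 lower. That is 50.0% called, against 56.7% of all genes, 27.4% as higher and 29.3% as lower. The 2 were Abcg1 and the scarcely counted Nr1h3, whose call carries no weight, so the count rests on Abcg1. With so few genes these counts are a description only. Mylip was not tested. Abcg1, which loads cholesterol onto high-density lipoprotein, was at 21.7, 25.0 and 28.0 CPM in DMSO and at 10.6, 8.31 and 8.27 CPM in DTG. The highest DTG library was under the lowest DMSO library by a wide margin, and the fall was 1.45 log2 (SE 0.13, edgeR adjusted p = 1.16e-05). It was -1.39 among P4 and -1.32 among P5 libraries. Abca1, which loads lipid-poor apolipoprotein A-I, was the most abundant member in CPM, at 905, 903 and 1026 in DMSO and 888, 806 and 783 in DTG. Its groups were just separated, and the difference of -0.19 ± 0.09 log2 (SE) did not pass (edgeR adjusted p = 0.0792). It passed as lower with upper-quartile factors (0.0169) or library size alone (0.00513), with a range over alternatives of 0.00513 to 0.364. The exporters thus changed unequally: counts of Abca1 were 36.1 to 41.8 times those of Abcg1 in the DMSO libraries and 83.4 to 96.9 times in the DTG libraries.

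Of the receptors, Nr1h2 (LXR beta) was at 96.6, 95.4 and 75.3 CPM in DMSO and at 101, 98.2 and 99.4 CPM in DTG. It did not pass (0.16 ± 0.10 log2, SE, edgeR adjusted p = 0.187), although each DTG library was above each DMSO library, and its sign turned with library size alone. Nr1h3 (LXR alpha) was close to the detection limit, with 16, 14 and 19 counts under DMSO and 3, 3 and 2 under DTG. The ratio of summed counts, 49 to 8, was 6.11 after scaling. No test or interval is given for it, because the count filter kept the gene through its DMSO libraries alone, which favours a difference. With at least 1 CPM required in 3 libraries Nr1h3 was not tested, and 1 LXR and efflux gene fell. Mylip had 0 counts in 5 libraries and 1 count in DTG replicate 2. A limit of 3 counts corresponds to 0.0505 to 0.0691 CPM in these libraries, so the gene was not detectable in this table in either group. Whether the counting leaves out reads of Mylip was not tested.

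Differences within the tags had the same direction in 29 of the 31 members tested, and the exceptions, Mvk and Srebf2, did not pass. Dhcr7 within P4 and Npc1 within P5 are counted by sign although both values round to 0.00. Within P4 1 DMSO library stood against 2 DTG libraries, and within P5 2 against 1, so these values have no test. For Fdps (1.94 and 1.93 log2) and Idi1 (0.90 and 0.89) the tags gave nearly the same value. Stard4 (0.81 and 0.39), Soat1 (0.59 and 0.33) and Hmgcs1 (1.26 and 0.96) were higher within P4, and Nsdhl (0.32 and 0.72), Dhcr7 (0.00 and 0.37) and Insig1 (0.58 and 0.77) within P5.

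**Figure D4:**
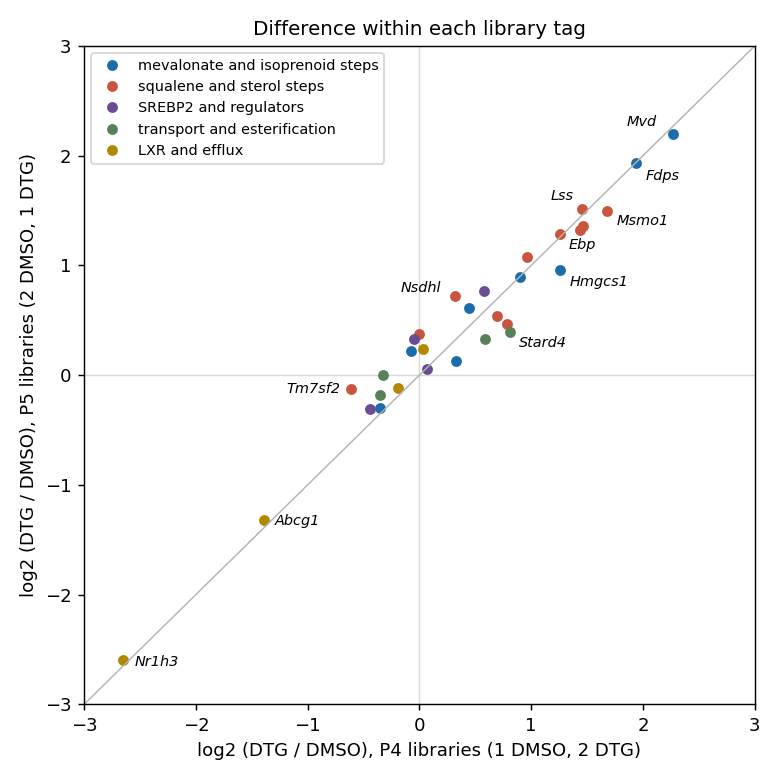
Log2 ratio of mean CPM, DTG over DMSO, of the 31 members tested, with P4 libraries (1 DMSO and 2 DTG) on the x axis and P5 libraries (2 DMSO and 1 DTG) on the y axis. The line marks equal values, and Mvd, Fdps and Abcg1 lie on or near it. So does Nr1h3, but its values rest on 2 to 19 counts a library and carry no weight.

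Other genes of the pathway came from 7 lists by function, 81 genes of which 74 were tested, and 31 rose and 20 fell (68.9%, against 56.7% of all genes). Their median change was 0.11 log2. Scaled by library size alone, 20 rose and 28 fell. Of 8 further enzymes of synthesis and its supply 4 rose and 2 fell (75.0%). Erg28, the anchor of the demethylation complex that holds Nsdhl and Msmo1, rose from 29.7, 28.9 and 24.9 CPM to 42.3, 57.2 and 57.5 CPM (edgeR adjusted p = 1.63e-04). Lbr, which shares the reductase activity of Tm7sf2, was lower by 1.51-fold (edgeR adjusted p = 6.58e-05), and Acat1, the mitochondrial thiolase, by 1.29-fold.

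Of 13 genes of SREBP processing and sterol-regulated degradation 5 rose and 1 fell (46.2%, against 56.7% of all genes). Paqr3, a Golgi protein that tethers SCAP and SREBP, rose from 5.73, 6.40 and 5.53 CPM to 18.8, 31.7 and 28.0 CPM (edgeR adjusted p = 6.44e-06), and Tmed2, a general cargo receptor between ER and Golgi, rose 3.32-fold. Mbtps1, the first protease that cuts SREBP, was 1.25-fold lower (edgeR adjusted p = 0.00424). Of 14 genes of the isoprenoid branches 7 rose and 2 fell (64.3%). Among the genes of protein prenylation, Zmpste24 and Rabggtb rose 1.53-fold and 1.46-fold, Icmt was 1.43-fold lower, and Fnta was 1.18-fold lower (edgeR adjusted p = 0.0165). The call of Fnta was lost without DMSO replicate 2 (0.0637), DTG replicate 2 (0.114) or DTG replicate 3 (0.0788).

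Of 8 tested genes of lipoprotein uptake and lysosomal release 3 rose and 3 fell (75.0%, against 56.7% of all genes). Tmem97, a sterol-regulated partner of NPC1, rose from 12.2, 12.7 and 11.1 CPM to 36.9, 35.5 and 34.2 CPM (edgeR adjusted p = 6.50e-07), and the lysosomal acid lipase gene Lipa 2.23-fold. Lamp1, of the lysosomal membrane, and Scarb1, the receptor for high-density lipoprotein, were 1.75-fold and 1.45-fold lower. Of 14 genes of non-vesicular sterol transport 7 rose and 5 fell (85.7%, against 56.7% of all genes). Osbp, which exchanges sterol between ER and Golgi, and its ER anchor Vapa rose 1.96-fold and 1.78-fold, while Gramd1c fell from 5.89, 5.65 and 6.06 CPM to 1.78, 2.00 and 1.89 CPM and Osbpl1a was 1.34-fold lower.

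Of 4 genes of ester formation and hydrolysis 2 rose and 0 fell (50.0%, against 56.7% of all genes, 27.4% as higher). Soat2, the second sterol esterification enzyme, was at 1.04, 1.23 and 0.668 CPM in DMSO and at 9.10, 11.5 and 10.6 CPM in DTG, a rise of 3.38 ± 0.20 log2 (SE, edgeR adjusted p = 7.27e-07). Dgat1 rose 1.19-fold (edgeR adjusted p = 0.0296), but 8 of 15 alternatives lost the call, including those without DMSO replicate 1 (0.0696) or 3 (0.0550) and without DTG replicate 2 (0.0765) or 3 (0.0774). Of 13 tested LXR partners, LXR targets and oxysterol enzymes 3 rose and 7 fell (76.9%), with a median of -0.45 log2. Rxra, the main partner of LXR, was 1.65-fold lower (edgeR adjusted p = 4.09e-05), and Cyp39a1, an oxysterol hydroxylase, fell from 7.09, 9.03 and 9.56 CPM to 2.62, 1.73 and 2.01 CPM. Ch25h, which makes an oxysterol that binds LXR and INSIG, rose 2.03-fold (edgeR adjusted p = 1.84e-05).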

How the data were processed

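Poly(A) RNA was sequenced from 3 DMSO and 3 DTG libraries (2 µg RNA each, TruSeq Stranded mRNA, per the labels' protocols). The deposited values are raw counts for 43271 Ensembl identifiers in a single table, without normalization. The build was GRCm39, per the submitters' processing notes. Not given in the sources used here: aligner, counter, strand setting and annotation release. Names were found for 89.2% of identifiers. Unnamed identifiers held 0.327% to 0.486% of counts.

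Tests used edgeR 4.0.16 (R 4.3.3) on the counts as deposited: filterByExpr (14101 genes), TMM, robust quasi-likelihood F-test with group as the only term, and Benjamini-Hochberg adjustment over all genes tested (threshold 0.05). Every adjusted p is from this test unless another setting is named. SE is the absolute log2 change over the square root of F. Depth leaves counting error small for most genes named. It is larger for Nr1h3, Mylip and other genes with few counts, such as Pdgfrb, Col1a1, Tubb3 in DMSO (5, 7 and 4 counts) and Soat2 in DMSO (53, 73 and 29 counts). Floors cover counting error only. Transcript length (longest coding transcript) and exon overlaps came from GENCODE M21 (GRCm38) by identifier, and promoter windows from RefSeq (GRCm38.p6). No coordinates of the counted genes are given because the builds differ.

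The members and lists were chosen with earlier results of these data known. All 32 members are named, and of each other list the 2 smallest p-values in each direction among genes that passed, except those left out by name. Acat3, Ctsb, Rmc1, Arid4b, Vps51 and Gm43738 were named after their values were seen. Some genes of these lists, 2 of them due under that rule, are not reported here by name. Of 81 list entries 1 had no match and 1 matched an older symbol. Alternatives were DESeq2 1.42.0, limma-voom (limma 3.58.1), other scalings and count filters, the P tag as a covariate, the replicate number as a block, and fits that omit 1 library. The pipeline was tested on simulated counts. Figures used matplotlib 3.10.9.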

Additional observations from a re-analysis of the deposited data

How the results depend on the processing

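Each of the 15 alternative fits was run on each tested member where its filter kept the gene, which gave 464 results. Of these 438 kept their side of the threshold, 16 lost a call and 10 gained one, and no call changed sign. Of the 23 members called, 19 kept call and sign throughout, and the exceptions were Ggps1, Tm7sf2, Nsdhl and Npc2. Nr1h3, whose call carries no weight, is counted in both the 23 and the 19. Signs that turned belonged to members without a call, namely Mvk, Srebf2, Insig2 and Nr1h2. With library size alone 2536 genes were called higher (3860 with TMM), which is 30.7% of calls against 48.3%, while upper-quartile factors gave 38.2%. Library size alone gave 8 falling members (5 with TMM) and 20 rising other pathway genes (31), and upper-quartile factors gave 8 falling members. Of the calls on members 66.7% were then higher by library size and 68.0% by upper quartile, against 78.3% with TMM. By role, the count of falling mevalonate genes was 1 in place of 0 with library size alone, upper-quartile factors or the P tag as a term. The count of falling transport genes was 2 in place of 1 by library size alone and 2 by upper-quartile factors. The count of falling LXR and efflux genes was 1 in place of 2 with at least 1 CPM in 3 libraries, because Nr1h3 was then not tested. Leaving out each library gave 3 to 6 falling members, 0 to 1 falling mevalonate genes, 0 to 1 falling sterol genes, 1 to 2 rising SREBP2 regulators and 0 to 2 falling transport genes. The sterol regulatory element was found in 0 members within 100 bases, and in 2 (Acat2 and Hmgcs1) as CACCCCAC, which overlaps the longer consensus, within 250 bases. Same-numbered replicates did not deviate together (correlations across genes of -0.295, -0.106 and -0.0744). Each of these pairs also joins a P4 with a P5 library, so the check cannot tell whether replicate numbers pair the libraries. Libraries with the same P tag did deviate together (0.134 to 0.226 for the 4 pairs across treatments), and all 5 pairs with different tags were negative. Deviations were taken from the mean of each treatment, so these correlations are not independent of each other. With the P tag in the model 17 members rose and 6 fell. With the replicate block 18 members rose and 5 fell as without it, and 3543 genes were higher and 3728 lower in place of 3860 and 4130. With 3 libraries a group and unclear independence, small changes such as those of Ggps1, Npc2 and Tm7sf2 are at the limit of what these data resolve.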
